A study of Rattus norvegicus with 48 samples.

Results

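Adhesion G protein-coupled receptors (aGPCRs) are receptors with a long extracellular region that binds matrix proteins or proteins of neighbouring cells, joined to a membrane-spanning part that signals through G proteins. Many of them cut themselves near the membrane, and the freed end of the membrane part can act as a tethered agonist. In brain vessels the family is known for its part in vessel growth and barrier formation, with Adgra2 (GPR124), which works with Reck in Wnt signalling, as the best known example. The 6 genes described here were listed by symbol as the aGPCRs of endothelial cells, namely Adgrf5 (GPR116), Adgrl4 (ELTD1), Adgre5 (CD97), Adgrg1 (GPR56) and the latrophilins Adgrl1 and Adgrl2. Their Ensembl identifiers are ENSRNOG00000011154 (Adgrf5), ENSRNOG00000033940 (Adgrl4), ENSRNOG00000004489 (Adgre5), ENSRNOG00000014963 (Adgrg1), ENSRNOG00000029134 (Adgrl1) and ENSRNOG00000032660 (Adgrl2). They are 6 of the 32624 features counted, and all 6 were among the 13050 features with at least 1 read in each sample, which are the features tested.

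Cortex endothelial cells (CECs) came from male Wistar-Han rats and were purified by magnetic sorting, which removed CD11b-positive cells and then retained CD31-positive cells. Food was given ad libitum (AL) or withdrawn for 1 (F1), 2 (F2) or 3 days (F3), always with free access to water, and each group has 3 samples, named i, j and k, from independent experiments in which cortices of several rats were pooled. The polyA RNA of each of the 12 samples was sequenced as 4 technical replicates, whose counts were summed to between 20718644 and 25960874 gene-assigned reads per sample. Levels are given as normalized counts, the reads of a gene after scaling to a common library size by the trimmed mean of M-values (TMM), with means ± SD over 3 samples. Log2 fold changes (LFC) and their standard errors (SE) come from edgeR's quasi-likelihood test on all 12 samples, and a gene was called at a Benjamini-Hochberg adjusted p of at most 0.05 over the 13050 features.

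The label of the cells was checked on marker genes. The 5 endothelial markers with an identifier, Pecam1 (CD31), Abcb1a, Abcg2, Bsg and Slco1c1, summed to between 376881 and 445156 normalized counts per sample. The 3 mural markers (Abcc9, Anpep and Acta2) summed to 1689 to 4744, the 7 microglia and macrophage markers to 64.1 to 148, the astrocyte marker Aldoc to 1530 to 2277, the erythroid marker Alas2 to 36.1 to 110 and the choroid plexus marker Aqp1 to 2.97 to 79.2. Marker lists for neurons, oligodendrocytes, blood leukocytes and fibroblasts had 0 genes with an identifier in the copy of the study's gene tables used here, and were not analysed. That copy is shortened, and the study's full table holds only genes with at least 1 read in each sample. Either can leave a marker out. In these bulk samples, fewer cells of one kind cannot be told apart from less RNA per cell.

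Promoters were matched by symbol for 5 of the 6 genes, all but Adgrl1. Those of Adgrl4, Adgrl2 and Adgrg1 are shown because these genes rose together in F1 and F3 rats, and that of Adgrf5 because it had the most reads and was not called on any day. Each is the 250 bases before the start of the gene in RefSeq on build GRCr8, 5′ to 3′ on the gene's strand, at chr2:243014689-243014938 (+) for Adgrl4, chr2:240495300-240495549 (−) for Adgrl2, chr19:10047139-10047388 (−) for Adgrg1 and chr9:25121238-25121487 (−) for Adgrf5. Capitals mark GGAA on either strand (TTCC on the strand shown), the core that ETS factors recognise, a family with well-known roles in endothelial genes.
Adgrl4: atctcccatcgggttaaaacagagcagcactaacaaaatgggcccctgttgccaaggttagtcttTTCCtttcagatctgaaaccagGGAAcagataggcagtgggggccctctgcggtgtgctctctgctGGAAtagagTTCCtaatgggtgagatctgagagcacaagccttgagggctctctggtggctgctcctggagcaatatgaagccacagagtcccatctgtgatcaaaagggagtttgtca
Adgrl2: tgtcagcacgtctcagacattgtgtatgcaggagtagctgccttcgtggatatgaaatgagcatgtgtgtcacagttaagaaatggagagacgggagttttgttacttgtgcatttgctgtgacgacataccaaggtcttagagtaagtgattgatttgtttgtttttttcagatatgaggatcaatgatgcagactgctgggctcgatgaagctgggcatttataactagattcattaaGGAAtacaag
Adgrg1: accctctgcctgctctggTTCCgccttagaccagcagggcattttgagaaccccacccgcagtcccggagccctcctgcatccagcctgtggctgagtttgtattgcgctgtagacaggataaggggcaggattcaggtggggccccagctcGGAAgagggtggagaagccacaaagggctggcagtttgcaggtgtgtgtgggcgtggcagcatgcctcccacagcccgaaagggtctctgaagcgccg
Adgrf5: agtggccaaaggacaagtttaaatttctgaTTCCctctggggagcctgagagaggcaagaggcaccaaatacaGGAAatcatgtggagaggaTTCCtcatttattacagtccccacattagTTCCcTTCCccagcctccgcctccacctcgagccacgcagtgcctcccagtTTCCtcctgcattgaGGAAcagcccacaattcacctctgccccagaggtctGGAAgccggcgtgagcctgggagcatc
The GGAA core was found 4 times before Adgrl4, 1 time before Adgrl2, 2 times before Adgrg1, 8 times before Adgrf5 and 5 times before Adgre5, while a median of 3 matches was found over the 33469 promoter windows of the same length and 93.23% of them held at least 1. Neither AGGTCA, the core site of many nuclear receptors, which was found in 14.06% of the windows, nor GTAAACA, a forkhead motif found in 3.215%, was present on either strand of these 5 windows. The windows differed in base composition, with 41.2% G and C before Adgrl2, 51.2% before Adgrl4, 54.8% before Adgrf5, 62% before Adgrg1 and 70% before Adgre5, against a median of 51.2%. The GGAA counts of 4, 1 and 2 before the 3 genes that rose lay on both sides of the median of 3 and below the 8 of Adgrf5. A link between these counts and fasting was not tested. A match is a description of the sequence and not a binding site.

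Adgrf5 and Adgrl4 took most of the reads of the family. Adgrf5, known for the control of lung surfactant and also made by endothelial cells, had a mean of 126450 ± 10643 normalized counts over the 12 samples (SD), the rank 10 among the 13050 features and 0.531% of all assigned reads. Adgrl4, an orphan receptor that is enriched in endothelium and involved in vessel growth, had 30399 ± 4716 and the rank 89. For scale, Pecam1, the CD31 antigen used in the sort, had 34031 ± 2262. The reads of Adgrf5 and Adgrl4 together made up 81.1% of the reads of the 16 family genes with an identifier.

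The other members had fewer reads. Adgre5, which is best known on leukocytes and binds CD55, had 6526 ± 841 normalized counts (rank 601). Adgrl2, a latrophilin that binds teneurins and FLRT proteins at cell contacts, had 6459 ± 1493 (rank 614), and Adgrg1, a collagen III receptor known for its role in cortex development and myelination, had 6277 ± 1392 (rank 638). Adgrl1, the receptor of the spider toxin latrotoxin and a synaptic adhesion protein, had the fewest at 2247 ± 151 (rank 2180). These are reads and not levels per length, and a longer transcript gives more reads at the same number of molecules, so the order is one of reads.

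Neighbours in the order were compared within samples by an exact sign-flip permutation test of the log2 ratio of reads. It was two-sided, with n = 12 and adjustment over 5 pairs. The order came from the same 12 samples, so the test is no independent check of it. The smallest unadjusted p that this permutation test allows is 0.000488, reached when all 12 samples go the same way. Adgrf5 exceeded Adgrl4 in 12 of 12 samples with a geometric mean ratio of 4.19, Adgrl4 exceeded Adgre5 in 12 of 12 with a ratio of 4.64, and Adgrg1 exceeded Adgrl1 in 12 of 12 with a ratio of 2.73 (exact permutation adjusted p = 0.000814 for each). Adgre5 exceeded Adgrl2 in 6 of 12 samples, with a ratio of 1.03 (exact permutation adjusted p = 0.625). Adgrl2 exceeded Adgrg1 in 8 of 12, also with a ratio of 1.03 (exact permutation adjusted p = 0.625). The order of these 3 genes depended on the group. Adgre5 exceeded Adgrl2 in all 3 AL and all 3 F2 samples, and Adgrl2 exceeded Adgre5 in all 3 F1 and all 3 F3 samples. Adgre5 also exceeded Adgrg1 in all 3 AL samples. By group means, Adgre5 had rank 3 of the 6 in AL and rank 5 in F1 and F3 rats, whereas Adgrl2 had rank 4 in AL, rank 3 in F1 and F3 and rank 5 in F2 rats.

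**Figure D1:**
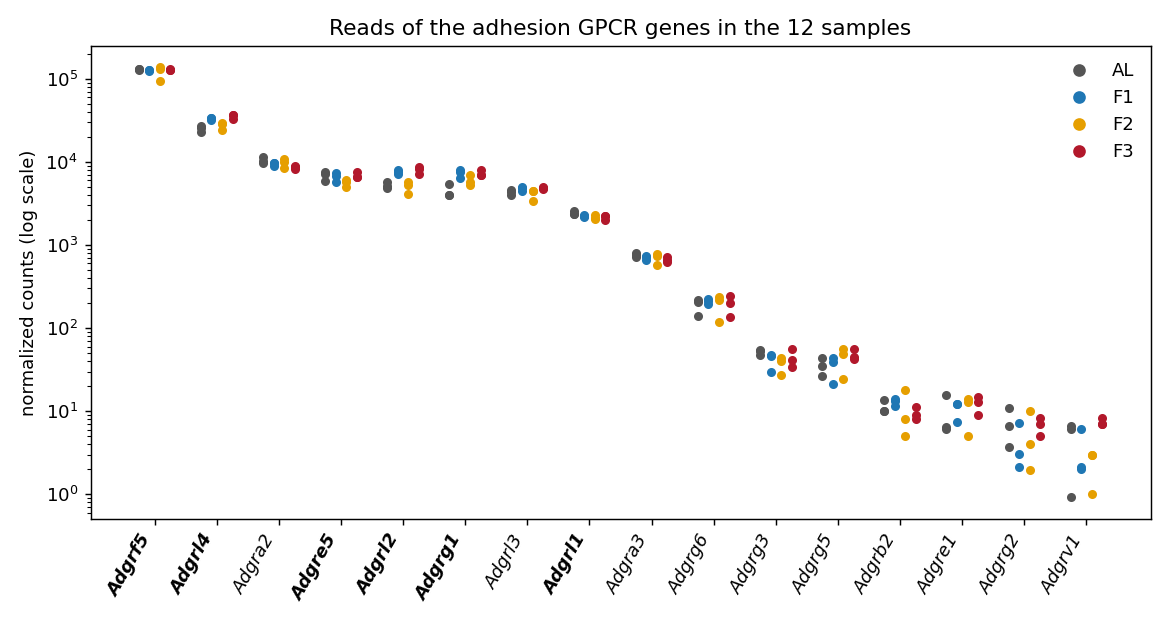
Normalized counts (log scale) of the 16 adhesion GPCR genes with an identifier, ordered by their mean, with 1 point per sample coloured by group (3 samples in each of AL, F1, F2 and F3) and the 6 genes of this report in bold. Adgrf5 and Adgrl4 stood above all other family genes in all 12 samples, and 6 genes on the right had a mean under 100.

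Of the 31 family genes listed, 16 had an identifier in that shortened copy, including 10 beyond the members. The study's full table holds only genes with at least 1 read in each sample, so that all 16 were tested follows from it. Symbols that begin with Adgr lie within the part of the alphabet that the copy covers. Those without an identifier may have had no reads in some sample, which was not checked. Of these 10, Adgra2 had the most reads, at 9584 ± 974 normalized counts over the 12 samples and the rank 384, between Adgrl4 and Adgre5. The third latrophilin, Adgrl3, had 4510 ± 459, Adgra3 707 ± 66.4 and Adgrg6, known for its role in Schwann cell myelination, 195 ± 41.3. The other 6, Adgrg3, Adgrg5, Adgrb2, Adgre1, Adgrg2 and Adgrv1, had means between 4.42 and 43.4. Adgre1, the macrophage antigen F4/80, was among them at 10.7 ± 3.73. The 6 members made up 0.750% ± 0.0138 of all assigned reads in AL, 0.758% ± 0.0163 in F1, 0.698% ± 0.105 in F2 and 0.788% ± 0.00808 in F3 samples (SD, n = 3), and the wide spread in F2 rats came with a low value of 0.580% in sample j.

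After 1 day of fasting, 3 of the 6 receptors were higher than in AL rats and the other 3 were not called. Adgrg1, Adgrl2 and Adgrl4 rose by 1.63-fold, 1.46-fold and 1.31-fold. The share of all tested features called higher in F1 rats was 3.87%, and 6.56% were called in either direction. The median LFC was 0.18 over the 6 members and -0.004 over all features.

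Adgrg1 had 4047, 5408 and 4025 normalized counts in AL samples i, j and k, and 8012, 7578 and 6391 in the F1 samples. The lowest F1 sample lay above the highest AL sample, which was j. The LFC was 0.71 (SE 0.14, 95% interval 0.41 to 1.00, edgeR adjusted p = 0.00913), and it was called under 25 of 25 alternatives in which the threshold was kept. Adgrl2 had 4848, 5078 and 5725 in AL and 7598, 7960 and 7243 in F1 samples, again with no overlap. Its LFC was 0.54 (SE 0.12, 95% interval 0.29 to 0.79, edgeR adjusted p = 0.0146), and the call was lost without AL sample i (edgeR adjusted p = 0.0694) and without F1 sample j (0.0716).

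Adgrl4 had 23105, 27279 and 25520 normalized counts in AL samples and 34181, 32018 and 33348 in F1 samples. All 3 F1 samples lay above all 3 AL samples. The LFC was 0.39 (SE 0.09, 95% interval 0.19 to 0.59, edgeR adjusted p = 0.0244), and this call was the least stable of the 3 on day 1. It was lost without AL sample i (edgeR adjusted p = 0.108), AL sample k (0.0667) and F1 samples i (0.0834), j (0.0665) and k (0.0666), with an LFC of at least 0.33 throughout.

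The other 3 members were not called on day 1, with intervals that limit the size of a change. Adgrf5 had 129751, 128926 and 130853 normalized counts in AL and 128460, 127082 and 124353 in F1 samples, an LFC of -0.04 (95% interval -0.28 to 0.21, edgeR adjusted p = 0.894). Adgre5 had 5926, 7211 and 7583 in AL and 7393, 6838 and 5744 in F1 samples (LFC -0.05, 95% interval -0.30 to 0.20, edgeR adjusted p = 0.842). Adgrl1 had 2553, 2353 and 2388 in AL and 2183, 2214 and 2323 in F1 samples. The F1 samples of Adgrl1 lay just below the AL samples, with an LFC of -0.12 (95% interval -0.27 to 0.03, edgeR adjusted p = 0.380). Together with the 3 genes that rose, and with Adgrf5, whose F1 samples also lay below the AL samples, 5 of the 6 members did not overlap between the groups, a state shared by 28.7% of all tested features.

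**Figure D2:**
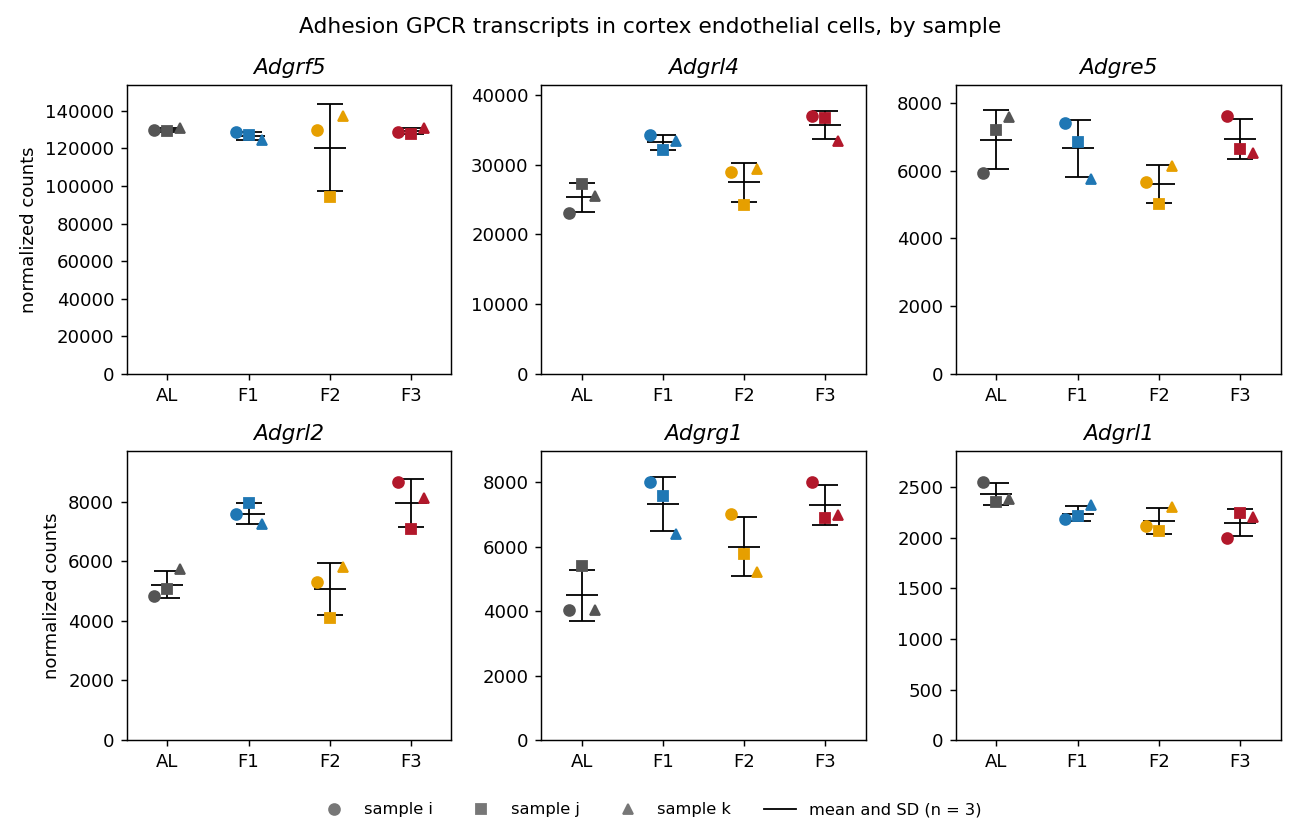
Normalized counts (from 0) of the 6 receptors in the 12 samples, with 1 panel per gene in order of reads, 1 symbol per sample letter, and the group mean with its SD (n = 3). Adgrl4, Adgrl2 and Adgrg1 lay above AL in all 3 samples of F1 and of F3, and F2 sample j was the lowest of the 12 samples for Adgrf5, Adgrl2 and Adgre5.

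After 2 days, 0 of the 6 receptors were called against AL, while 0.858% of all tested features were (edgeR). At an unadjusted p under 0.05, 3 members differed, namely Adgrg1, Adgre5 and Adgrl1, against 12.8% of all features, and DESeq2's Wald test called 0 of the 6 and 2.75% of all features. Adgrg1 had 7010, 5774 and 5210 normalized counts in F2 samples i, j and k, with sample k below AL sample j. Its LFC was 0.42 (SE 0.14, 95% interval 0.12 to 0.71, edgeR adjusted p = 0.205, between 0.0585 and 0.566 over the alternatives). Adgrl4 had 28889, 24228 and 29296 (LFC 0.12, 95% interval -0.08 to 0.32, edgeR adjusted p = 0.645), and sample j lay within the AL range. Adgrl2 had 5288, 4109 and 5795, close to the AL samples (LFC -0.04, 95% interval -0.29 to 0.21, edgeR adjusted p = 0.912).

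Of the members that did not rise on day 1, Adgre5 had 5675, 5010 and 6139 normalized counts in F2 samples, and the lowest AL sample lay within that range. Its LFC was -0.30 (SE 0.12, 95% interval -0.55 to -0.05, edgeR adjusted p = 0.292). Adgrl1 had 2121, 2069 and 2307, all below the lowest AL sample (LFC -0.17, 95% interval -0.32 to -0.02, edgeR adjusted p = 0.338). It was the only one of the 6 members that did not overlap with AL on day 2, against 15.5% of all features. Adgrf5 had 129585, 94050 and 137167 (LFC -0.11, 95% interval -0.35 to 0.13, edgeR adjusted p = 0.732).

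F2 sample j stood apart for several of the receptors. Its normalized counts were 70.5% of the mean of F2 samples i and k for Adgrf5, 74.1% for Adgrl2, 83.3% for Adgrl4, 84.8% for Adgre5, 93.4% for Adgrl1 and 94.5% for Adgrg1, whereas the median over all tested features was 101%. It held the lowest of the 12 values for 20.9% of all tested features, more than any other sample (5.16% to 10.8% in the other 11). Its total of 23537074 assigned reads was near the median of the samples, 23809144. Without it the LFC of Adgrf5 on day 2 was 0.04 instead of -0.11, that of Adgrl2 was 0.09, and 0 of the 6 members were called against AL as before.

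After 3 days the same 3 receptors were higher than in AL rats. Adgrg1 rose by 1.62-fold, Adgrl2 by 1.52-fold and Adgrl4 by 1.41-fold, and these 3 calls remained under 25 of 25 alternatives in which the threshold was kept. Of all tested features, 6.28% were called higher and 5.77% lower. The median LFC was 0.25 over the members and -0.005 over all features. The F1, F2 and F3 comparisons share the same 3 AL samples.

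Adgrg1 had 8011, 6881 and 6975 normalized counts in F3 samples, all above the highest AL sample (LFC 0.70, SE 0.14, 95% interval 0.40 to 0.99, edgeR adjusted p = 0.00515). Adgrl2 had 8662, 7097 and 8106 (LFC 0.61, SE 0.12, 95% interval 0.36 to 0.86, edgeR adjusted p = 0.00426). Adgrl4 had 36957, 36670 and 33297 (LFC 0.49, SE 0.09, 95% interval 0.29 to 0.69, edgeR adjusted p = 0.00378). For all 3 genes the F3 samples lay above the AL samples, and Adgrl1, with 1996, 2247 and 2208, was the fourth member without overlap and lay below AL. Across all features, 35.6% did not overlap.

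Adgrl1 had an LFC of -0.18 on day 3 (SE 0.07, 95% interval -0.33 to -0.03, edgeR adjusted p = 0.128) and was not called. Adgre5 had 7614, 6646 and 6530 normalized counts in F3 samples and an LFC of 0.01 (95% interval -0.25 to 0.26, edgeR adjusted p = 0.984). Adgrf5 had 128656, 127566 and 130953, on both sides of the AL range of 128926 to 130853, and an LFC of -0.01 (95% interval -0.25 to 0.24, edgeR adjusted p = 0.974). The 2 latrophilins among the members thus differed in their values, with the 3 F3 samples of Adgrl2 above and the 3 of Adgrl1 below AL.

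**Figure D3:**
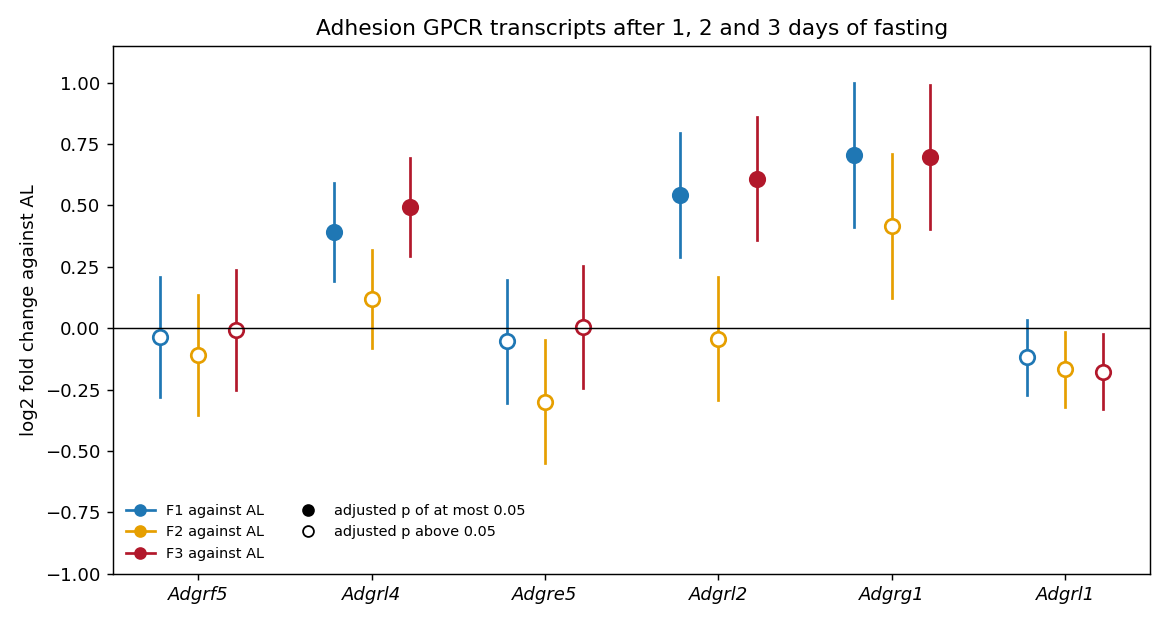
Log2 fold change against AL of the 6 receptors after 1, 2 and 3 days of fasting (3 samples per group), with 95% intervals from edgeR's model as vertical lines and filled points for an adjusted p of at most 0.05. Adgrl4, Adgrl2 and Adgrg1 have filled points on days 1 and 3 and open points on day 2, and the other 3 genes have open points throughout.

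The days of fasting were compared with each other to test whether the level changed between them. Adgrl2 was lower in F2 than in F1 rats (LFC -0.59, SE 0.12, edgeR adjusted p = 0.0311) and higher in F3 than in F2 rats (LFC 0.65, SE 0.12, edgeR adjusted p = 0.00827), and all 3 F2 samples lay below all F1 and all F3 samples. Of the 6 members, 1 was called in F2 against F1 rats, where 1.43% of all features were called and 21.8% did not overlap, and 2 in F3 against F2 rats, where 5.94% were called and 26.8% did not overlap. The rise of Adgrl2 from day 2 to day 3 was called under 25 of 25 alternatives. The fall from day 1 to day 2 was lost without F1 samples i (edgeR adjusted p = 0.0914), j (0.165) and k (0.0646), F2 sample i (0.0507) and F3 sample k (0.0567), and also when the other 6 samples were left out of the fit (0.0692) or with the mural markers as a covariate (0.109).

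Adgrl4 rose from day 2 to day 3 (LFC 0.38, SE 0.09, edgeR adjusted p = 0.0323). That call was lost without F2 sample j (edgeR adjusted p = 0.0610), F3 samples i (0.131), j (0.0925) and k (0.0562), without the other 6 samples in the fit (0.0919) and with the mural covariate (0.0594). From day 1 to day 2 its LFC was -0.27 (edgeR adjusted p = 0.151), although the F2 samples lay below the F1 samples. Adgrg1 did not pass between days, with an LFC of -0.29 from day 1 to day 2 (95% interval -0.58 to 0.004, edgeR adjusted p = 0.297) and of 0.28 from day 2 to day 3 (95% interval -0.01 to 0.57, edgeR adjusted p = 0.248). Adgre5 had an LFC of 0.31 from day 2 to day 3 (95% interval 0.05 to 0.56, edgeR adjusted p = 0.140), with all 3 F3 samples above the F2 samples.

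Between F3 and F1 rats edgeR called 0 features (0.00%), with 579 at an unadjusted p under 0.05 (4.44%) and 24 called by DESeq2 (0.184%). For the 3 receptors that rose, the LFC between these days was 0.10 for Adgrl4 (95% interval -0.10 to 0.30), 0.07 for Adgrl2 (-0.18 to 0.32) and -0.01 for Adgrg1 (-0.30 to 0.29). In the joint test of the 4 groups the same 3 members were called (edgeR adjusted p = 0.00979 for Adgrl4, 0.00321 for Adgrl2 and 0.0132 for Adgrg1), against 10.1% of all features. Adgre5 (0.240), Adgrl1 (0.277) and Adgrf5 (0.862) were not. The joint call of Adgrg1 was lost without AL sample i (edgeR adjusted p = 0.0539) or AL sample k (0.0540).

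Ratios of reads between 2 receptors within 1 library do not depend on how libraries were scaled. The ratio of Adgrl4 to Adgrf5 lay between 0.178 and 0.212 in AL samples, 0.252 and 0.268 in F1, 0.214 and 0.258 in F2, and 0.254 and 0.287 in F3 samples. The ratio was thus higher than in every AL sample in all 9 fasted samples. The ratio of Adgrg1 to Adgre5 lay between 0.531 and 0.750 in AL, and between 1.08 and 1.11 in F1, 0.849 and 1.24 in F2 and 1.04 and 1.07 in F3 samples, so that Adgrg1 passed from fewer to more reads than Adgre5 in 8 of 9 fasted samples.

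Within the latrophilins, the ratio of Adgrl2 to Adgrl1 rose from between 1.90 and 2.40 in AL to between 3.12 and 3.60 in F1 and between 3.16 and 4.34 in F3 samples, while it lay between 1.99 and 2.51 in F2 samples. The ratio of Adgrl2 to Adgrl3 was 1.18 to 1.24 in AL, 1.59 to 1.63 in F1, 1.17 to 1.30 in F2 and 1.49 to 1.72 in F3 samples. All 4 ratios were apart from AL on days 1 and 3, and 2 of them on day 2. In each pair the numerator is a gene called higher on days 1 and 3 and the denominator one that was not called. The separations on those days are therefore not separate evidence, and ratios of other gene pairs were not examined. Each such separation has an exact two-sided permutation p of 0.1, the smallest that 3 samples against 3 allow (0.12 when adjusted over the 12 comparisons), so none could pass 0.05.

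**Figure D4:**
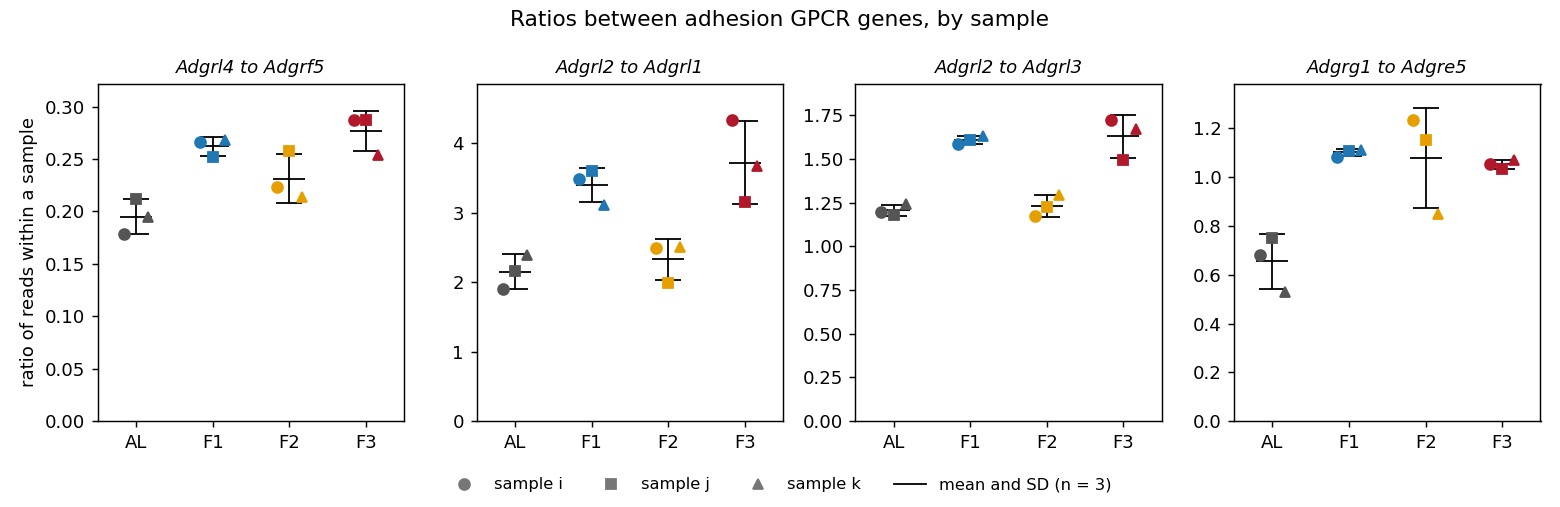
Ratio of reads between 2 receptors within each sample (from 0), for Adgrl4 to Adgrf5, Adgrl2 to Adgrl1, Adgrl2 to Adgrl3 and Adgrg1 to Adgre5, with the arithmetic mean and SD of 3 samples per group. All 4 ratios were higher in every F1 and F3 sample than in every AL sample, and both ratios with Adgrl2 as numerator overlapped with AL in F2.

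In the rest of the family, 0 of the 10 other genes were called by edgeR in any of the 6 comparisons, while 0, 0 and 1 of them had an unadjusted p under 0.05 in F1, F2 and F3 against AL. Among the members these were 3, 3 and 4 of 6, and among all features 20.6%, 12.8% and 26.0%. The one outside the members was Adgra2, with 10389, 9663 and 11440 normalized counts in AL samples and 8287, 8914 and 8594 in F3 samples. All 3 F3 samples lay below all 3 AL samples, with an LFC of -0.29 (SE 0.09, edgeR adjusted p = 0.0619). It was called by DESeq2 (adjusted p = 0.0321), with total-count scaling (0.0278), without the other 6 samples in the fit (0.0285) and without AL sample j (0.0461), F2 sample i (0.0484) or F2 sample j (0.0146). The alternatives gave adjusted p-values between 0.0146 and 0.208. Adgrl3 had values of 4051 to 4616 in AL and 4756 to 5022 in F3 samples (LFC 0.17, edgeR adjusted p = 0.317).

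The partners of these receptors were read from 2 lists, one of ligands and co-receptors and one of intracellular signalling partners. Of the 44 ligands and co-receptors, 1 had an identifier, C1ql3, a ligand of Adgrb3, and it was not called on any day (LFC 0.84 in F1, 0.11 in F2 and 0.73 in F3 rats, edgeR adjusted p = 0.421 or more). Of the 36 intracellular partners, 6 had an identifier and 0 were called in any comparison. Among them, Arrb2 and Arrb1, the beta-arrestins, had 217 ± 35.5 and 145 ± 23.0 normalized counts over the 12 samples (SD). The F3 samples of Arrb1 lay below the AL samples (LFC -0.34, edgeR adjusted p = 0.226).

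Marker genes were read beside these results. Slc38a5, a glutamine transporter and the 1 gene of the venous list with an identifier, was lower in F1 (LFC -0.48, edgeR adjusted p = 0.0281) and F3 rats (LFC -0.48, edgeR adjusted p = 0.0182), the days on which 3 receptors were higher. Of the 5 endothelial markers, Slco1c1, a thyroid hormone transporter of the blood-brain barrier, was lower in F3 rats (LFC -0.31, edgeR adjusted p = 0.0255), with an LFC of -0.29 in F1 rats that did not pass (edgeR adjusted p = 0.0534). The other 4 were not called in F1 or F3 rats. Their LFCs in F3 rats were 0.03 for Pecam1, 0.01 for Abcb1a, 0.23 for Abcg2 and -0.05 for Bsg. In F1 rats they were 0.16, -0.005, 0.18 and 0.06, and the F1 samples of Pecam1 lay above the AL samples (edgeR adjusted p = 0.233). The astrocyte marker Aldoc was not called on any day, although its F3 samples lay below the AL samples (LFC -0.34, edgeR adjusted p = 0.111). The arterial gene Bmx, at 19.5 to 57.8 normalized counts, was not called. Its F1 samples lay above the AL samples (LFC 1.00, edgeR adjusted p = 0.0983), and its F3 samples overlapped with them (LFC 0.46, edgeR adjusted p = 0.447). The 3 mural markers were not called, and their sum ranged from 1908 to 4372 in AL, 2066 to 2365 in F1, 2451 to 4744 in F2 and 1689 to 4443 in F3 samples. The part of vessel type or cell makeup in these results was not tested. With the mural markers as a covariate, 3, 0 and 3 members were called in F1, F2 and F3 rats against AL, as without it. Between days, the calls of Adgrl2 in F2 against F1 and of Adgrl4 in F3 against F2 rats were lost with this covariate.

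For each receptor the 3 genes with the most similar profile over the 12 samples were taken from 1146 genes that averaged 100 normalized counts or more and whose symbol is not a clone or locus name. The shortened copy of the gene tables covers symbols from A to early C and transporter genes listed by the study. Most other genes could therefore not appear, and transporters are over-represented among the candidates. Differences between the 4 groups also enter each correlation, so these are descriptions. For Adgrl4 they were Arhgap31, a GTPase-activating protein (Pearson r = 0.96, Spearman coefficient 0.90), Slc9a8 (0.96 and 0.97) and Adamts9, a secreted metalloprotease (0.95 and 0.87). For Adgrl2 they were Adamts9 (0.96 and 0.94), Ap4e1 (0.96 and 0.97) and Ankrd11 (0.95 and 0.94). Adamts9 had 3050 ± 687 normalized counts in AL, 8783 ± 333 in F1, 3547 ± 1085 in F2 and 10986 ± 1989 in F3 samples, with the same order of groups as both receptors apart from the F2 mean of Adgrl2, which was below its AL mean.

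For Adgrg1 the most similar genes were Acadm, an enzyme of fatty acid oxidation (Pearson r = 0.96, Spearman coefficient 0.87), Baiap2 (0.95 and 0.84) and the glutamine transporter Slc38a3 (0.94 and 0.92). Acadm had 6682 ± 317, 8600 ± 302, 7722 ± 591 and 8449 ± 302 normalized counts in AL, F1, F2 and F3 samples. For Adgre5 they were Arid3a (0.90 and 0.85), Caskin2 (0.90 and 0.84) and Ap5s1 (0.88 and 0.94), and for Adgrl1 Slc6a6, the taurine transporter (0.88 and 0.90), Arrb1 (0.86 and 0.73) and Ccdc17 (0.84 and 0.79). Without the 2 samples farthest from the median of the receptor, r remained at 0.75 or more for the 15 pairs of receptor and gene named here. For Adgrf5 the values were Apc (0.97 and 0.69), Bptf (0.97 and 0.62) and Bdp1 (0.97 and 0.69), and without F2 samples j and k, its 2 farthest, r was 0.61, 0.41 and 0.47. The likeness of these 3 genes to Adgrf5 thus rested on the F2 samples.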

How the data were processed

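The deposited files hold raw counts per gene, which the authors made from 75 bp single-end reads of stranded polyA libraries by alignment to Rnor_6.0 with STAR, removal of reads that matched more than once, and counting over Ensembl 91 exons with HTSeq 0.5.3 (tools per the labels and methods). The strand setting is not given in the sources used here, so reads of overlapping or antisense genes cannot be told apart, and reads shared with near-identical genes were lost. The counts of 4 technical replicates were summed per sample. One technical replicate of F1 sample k carries an F1 title and a treatment label of 2 days, and it was kept in F1 by its title.

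The summed counts were normalized by TMM and fitted with edgeR 4.0.16 (R 4.3.3; glmQLFit with robust moderation, 4 group means, 12 samples, no covariate), with DESeq2 1.42.0 as an alternative. A feature needed at least 1 read in each sample (13050 of 32624). P-values were adjusted by Benjamini-Hochberg over all of them. They rest on the spread between samples within groups, shared over the 4 groups and moderated across genes. Each sample is a pool of several rats, so the spread between animals was not measured. On simulated data of 12826 genes, the model recovered 71%, 73% and 69% of genes changed by 1.5-fold in F1, F2 and F3 against AL. Of those changed by 2-fold it recovered 93%, 93% and 94%, and 5.75%, 4.05% and 5.23% of its calls were unchanged genes. The changed genes were drawn from those with more reads. Each gene had the same dispersion in all groups and the same change in F1, F2 and F3. No simulated sample was set apart as F2 sample j was, so these shares need not hold for the F2 samples.

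Symbols came from a shortened copy of the study's supplementary gene tables, which covered 2043 of the tested features. It holds symbols from A to early C and transporter genes listed by the study. The study's full table holds only genes with at least 1 read in each sample. A missing identifier can thus reflect the shortened copy or too few reads, and these were not told apart. Gene lengths were not used here. The rule for named genes took the 6 members, the family genes with a mean of at least 100 normalized counts or a call, up to 6 genes per partner list, and the 3 genes with the highest Pearson correlation of log2 CPM (prior count 2) to each member. The members and lists were chosen with earlier results of these data known. Promoters are the RefSeq sequences of GRCr8, which is not the build of the counts. Alternatives changed the scaling, filter, tool, threshold, samples, depth or covariate, 1 at a time. Some genes of the intracellular partner list are not reported here.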

Additional observations from a re-analysis of the deposited data

Results flagged for a closer look

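The effect of fasting on Adgrl4 and Adgrl2 differed between days by a test of the difference itself, with edgeR. Adgrl2 was lower in F2 than in F1 rats (LFC -0.59, edgeR adjusted p = 0.0311, lower in 3 of 3 samples) and higher in F3 than in F2 rats (LFC 0.65, edgeR adjusted p = 0.00827, higher in 3 of 3 samples). Adgrl4 was higher in F3 than in F2 rats (LFC 0.38, edgeR adjusted p = 0.0323, higher in 3 of 3 samples). F2 sample j had the lowest level of both genes among the F2 samples. Without it the LFC of Adgrl4 between F3 and F2 rats was 0.29 (edgeR adjusted p = 0.0610), and both calls of Adgrl2 remained. Over the 25 alternatives, the call of Adgrl2 in F2 against F1 rats held in 18 and that of Adgrl4 in F3 against F2 rats in 19. Adgrl4 was not called in F2 against F1 rats (LFC -0.27, edgeR adjusted p = 0.151).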

How the results depend on the processing

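Of the 6 receptors, 0 were called in F2 rats and 3 in F3 rats against AL under each of the alternatives run. In F1 rats the count of 3 fell to 1 at an adjusted p of at most 0.01 and lay between 1 and 3 when 1 sample was left out. For F2 against F1 the count of 1 fell to 0 at the stricter threshold, with only the 6 samples compared and with the mural covariate, and lay between 0 and 1 when 1 sample was left out. For F3 against F2 the count of 2 fell to 1 under the same 3 settings and lay between 1 and 2 when 1 sample was left out. The joint test called between 2 and 3 receptors when 1 sample was left out. The cause of these changes was not tested, and fewer samples were fitted in those that left samples out.

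The sign turned only for changes that were not called. When 1 sample was left out, the LFC of Adgrf5 lay between -0.22 (without F2 sample k) and 0.039 (without F2 sample j) for F2 against AL, between -0.18 and 0.075 for F2 against F1, and between -0.048 and 0.21 for F3 against F2. That of Adgrl1 for F3 against F2 lay between -0.043 and 0.041, and that of Adgrl2 for F2 against AL between -0.15 and 0.087. For Adgre5 it lay between -0.15 and 0.044 in F1 and between -0.094 and 0.076 in F3 against AL, where total-count scaling gave -0.040. For Adgra2 in F2 against F1 it lay between -0.041 and 0.13, and the log2 ratio of Adgrl2 to Adgrl3 in F2 against AL lay between -0.0091 and 0.062.

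Deviations of samples with the same letter in different groups were at most weakly correlated, with r mostly above 0 (between -0.017 and 0.139 over 18 pairs, above 0.1 in 2). Pairs with other letters had r between -0.193 and 0.204 over 36 pairs, above 0.1 in 1. The letters were not taken to pair the samples. With the letter as a replicate block, 3, 0 and 3 receptors were called in F1, F2 and F3 rats, 1 in F2 against F1 and 2 in F3 against F2, as without it. Leaving out the technical replicate with conflicting labels, and fitting without robust moderation, an alternative chosen after seeing the data, changed no call of a receptor. The order of the receptors on a length scale was not run. With Spearman's correlation, between 0 and 2 of the 3 most similar genes were shared for each receptor.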
